A study of Homo sapiens with 2 samples.

Results

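Interferon-stimulated genes, here 35 named genes of the 33694 in the count matrix, were followed across 3 human mammary epithelial lines and the KRT17-rich and VIM-rich cells within them. The members were taken as a list by name. It covers ISG15, its conjugating enzyme gene UBE2L6, the ubiquitin ligase gene HERC6, RNA-binding antiviral effectors, membrane restriction factors and nucleic acid sensors. It also covers transcription factors, ADP-ribosyltransferases, guanylate-binding GTPases and further IFI genes. Main features were a large IFITM2 difference between the control line and both knockout lines and a set of members higher in VIM-rich cells. In the knockout lines a few single cells also held a large part of the IFIT transcripts.

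Type I and type III interferons bind receptors that signal through JAK kinases to a transcription factor complex that includes STAT2 and IRF9. This complex binds the interferon-stimulated response element in the promoters of genes such as ISG15, IFIT1 and MX1. Type II interferon acts through GAS elements, as in IRF1 and the GBP genes. Epithelial cells hold a low level of many of these genes without added interferon, and a cell that senses viral or misplaced nucleic acid can switch on the whole program by itself.

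The cells were C1 cells, an epithelial derivative of HMLER, an immortalised and RAS-transformed human mammary epithelial line. C1-sgControl carried a control guide, C1-sgEED a knockout of EED, a core subunit of the repressive Polycomb complex PRC2, and C1-sgKMT2D a knockout of KMT2D, a methyltransferase that marks enhancers. No interferon treatment is named in the labels. The lines were stained with hashtag antibodies, pooled and read as 1 gene expression library, so each line is 1 sample. The library titles call the material mixed clones without giving the number of clones. No difference below has a replicate check, no test was made, and all intervals are 95% intervals for counting error only. The counts of EED (13.6, 13.4 and 15.3 CPM in the control, EED and KMT2D guide lines) and of KMT2D (4.63, 3.02 and 5.02 CPM) do not check the labels, since edited transcripts can still be counted at their 3' end.

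The filters on cell quality kept 1720 cells of C1-sgControl (644 were removed), 2338 of C1-sgEED (170 removed) and 2348 of C1-sgKMT2D (147 removed). Their UMIs, the counted molecules, came to 9927122, 10256770 and 13957344. A further 1934 cells carried hashtag 2, to which the labels give no line, and they enter no comparison between lines. Cells were split by the share of VIM in their VIM and KRT17 UMIs. VIM encodes the mesenchymal intermediate filament vimentin and KRT17 a basal keratin. A share of at least 0.5 was called VIM-rich, which took in 4.76% of C1-sgControl, 52.5% of C1-sgEED and 50.3% of C1-sgKMT2D cells. The 2 states are ranges of a score and not cell types, and KRT17-rich cells were not alike across lines, with VIM at 1109 CPM for C1-sgControl cells, 1166 CPM for C1-sgEED cells and 2730 CPM for C1-sgKMT2D cells. Only 81 C1-sgControl cells were VIM-rich, too few to support a state comparison in that line. VIM-rich cells were shallower than KRT17-rich cells (median of 3484 against 4417 UMIs in C1-sgEED and 4574.5 against 6733 in C1-sgKMT2D). Their G2/M genes were also higher (3244 against 2010 CPM and 2514 against 1893 CPM).

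The promoters that follow belong to members on which the results turn. Each run gives the 180 bases before the gene's start in RefSeq (GRCh38.p14), 5′ to 3′ on the gene's strand, in lower case with the core of the interferon-stimulated response element in capitals. The core was searched as GAAANNGAAA or its reverse complement TTTCNNTTTC, so both strands are covered and overlapping matches run together. ISG15, IFIT1 and IFIT3 are the genes of the rare high cells, IFI6 was higher in VIM-rich cells of both knockout lines, IFI44L and IFITM3 passed the call in those of C1-sgKMT2D, ISG20 was lower in both and SAMD9 was lower in C1-sgKMT2D.
ISG15 (chr1:1013317-1013496, plus strand): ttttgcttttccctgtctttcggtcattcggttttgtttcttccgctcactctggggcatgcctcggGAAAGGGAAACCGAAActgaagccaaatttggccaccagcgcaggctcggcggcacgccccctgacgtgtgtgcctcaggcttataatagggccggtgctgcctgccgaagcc
IFIT1 (chr10:89392443-89392622, plus strand): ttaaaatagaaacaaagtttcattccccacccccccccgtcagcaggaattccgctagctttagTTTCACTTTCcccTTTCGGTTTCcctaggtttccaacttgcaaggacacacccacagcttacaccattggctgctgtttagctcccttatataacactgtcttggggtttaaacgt
IFIT3 (chr10:89327817-89327996, plus strand): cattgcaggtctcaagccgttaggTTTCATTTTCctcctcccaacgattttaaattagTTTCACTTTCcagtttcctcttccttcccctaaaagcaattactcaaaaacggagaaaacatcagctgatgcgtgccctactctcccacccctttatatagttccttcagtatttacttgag
IFI6 (chr1:27672193-27672372, minus strand): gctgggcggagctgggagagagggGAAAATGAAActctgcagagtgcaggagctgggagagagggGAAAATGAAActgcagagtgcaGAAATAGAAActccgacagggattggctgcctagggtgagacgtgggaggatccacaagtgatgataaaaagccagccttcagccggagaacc
IFI44L (chr1:78620268-78620447, plus strand): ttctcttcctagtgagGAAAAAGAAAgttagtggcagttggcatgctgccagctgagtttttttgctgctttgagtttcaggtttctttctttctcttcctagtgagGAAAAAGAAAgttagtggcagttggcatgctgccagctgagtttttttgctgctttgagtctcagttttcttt
IFITM3 (chr11:320861-321040, minus strand): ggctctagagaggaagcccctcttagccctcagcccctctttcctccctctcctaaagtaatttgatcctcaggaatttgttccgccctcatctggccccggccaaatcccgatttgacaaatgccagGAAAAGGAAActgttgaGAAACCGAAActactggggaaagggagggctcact
ISG20 (chr15:88638836-88639015, plus strand): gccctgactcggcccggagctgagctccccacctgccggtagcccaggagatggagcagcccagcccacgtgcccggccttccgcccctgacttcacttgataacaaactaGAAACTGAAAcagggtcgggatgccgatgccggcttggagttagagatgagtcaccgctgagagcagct
SAMD9 (chr7:93117980-93118159, minus strand): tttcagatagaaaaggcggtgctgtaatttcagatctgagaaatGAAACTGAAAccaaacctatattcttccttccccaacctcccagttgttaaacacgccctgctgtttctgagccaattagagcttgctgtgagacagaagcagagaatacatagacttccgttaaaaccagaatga

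Matches began 113 and 107 bases before the start in ISG15, 116 and 103 in IFIT1, 156 and 122 in IFIT3, and 52 and 35 in IFITM3. Of the 30 members with a promoter in the RefSeq table, 19 (63.3%) held the core within the 250 bases before and 50 bases after a start, against 4.38% of the 27305 genes in the table. The GAS core TTCNNNGAA, which reads the same on both strands, was present in 9 of the 30 members (30%) and in 9.38% of all genes. IFIT2, OAS2, IFITM2, IRF7 and GBP2 have no entry. ISG20 and SAMD9 each held 1 match, 69 and 136 bases before the start. A match is a description of the letters and does not show binding.

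Transcripts of interferons themselves were scarce. Of 11 interferon genes, 9 had no UMI in the 8340 single-hashtag cells, among them IFNB1, IFNL1 and IFNG. A count of 0 in 45438776 UMIs allows up to 0.066 CPM. IFNE, an epithelial type I interferon, had 30 UMIs and IFNK, the interferon of keratinocytes, had 6. Of 10 immune markers 6 had no UMI, as had 4 of 5 plasmacytoid and dendritic cell markers. PTPRC, CD3E, LYZ, TYROBP and NKG7 were among the immune markers at 0, and 837 of the immune marker UMIs were of CD68, a lysosomal gene that other cells express too. Their summed level was 20.5 CPM for C1-sgControl, 16.4 CPM for C1-sgEED and 16.3 CPM for C1-sgKMT2D.

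The summed level of the 35 members was 613 CPM for C1-sgControl cells, 911 CPM for C1-sgEED cells and 875 CPM for C1-sgKMT2D cells. Within the knockout lines it was 787 CPM in KRT17-rich and 1053 CPM in VIM-rich C1-sgEED cells, and 700 and 1103 CPM in C1-sgKMT2D. IFITM3 alone gave 40.2%, 36.9% and 48.8% of the member UMIs in C1-sgControl, C1-sgEED and C1-sgKMT2D, more than any other member. All 35 members had at least 1 UMI in each line. However, 15 stayed under 10 CPM in each group (the small VIM-rich C1-sgControl group left aside), namely HERC6, IFIT2, OAS1, OAS2, MX1, RSAD2, IFITM1, BST2, DDX58, IFIH1, STAT2, IRF9, PARP9, IFI44 and XAF1.

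**Figure D1:**
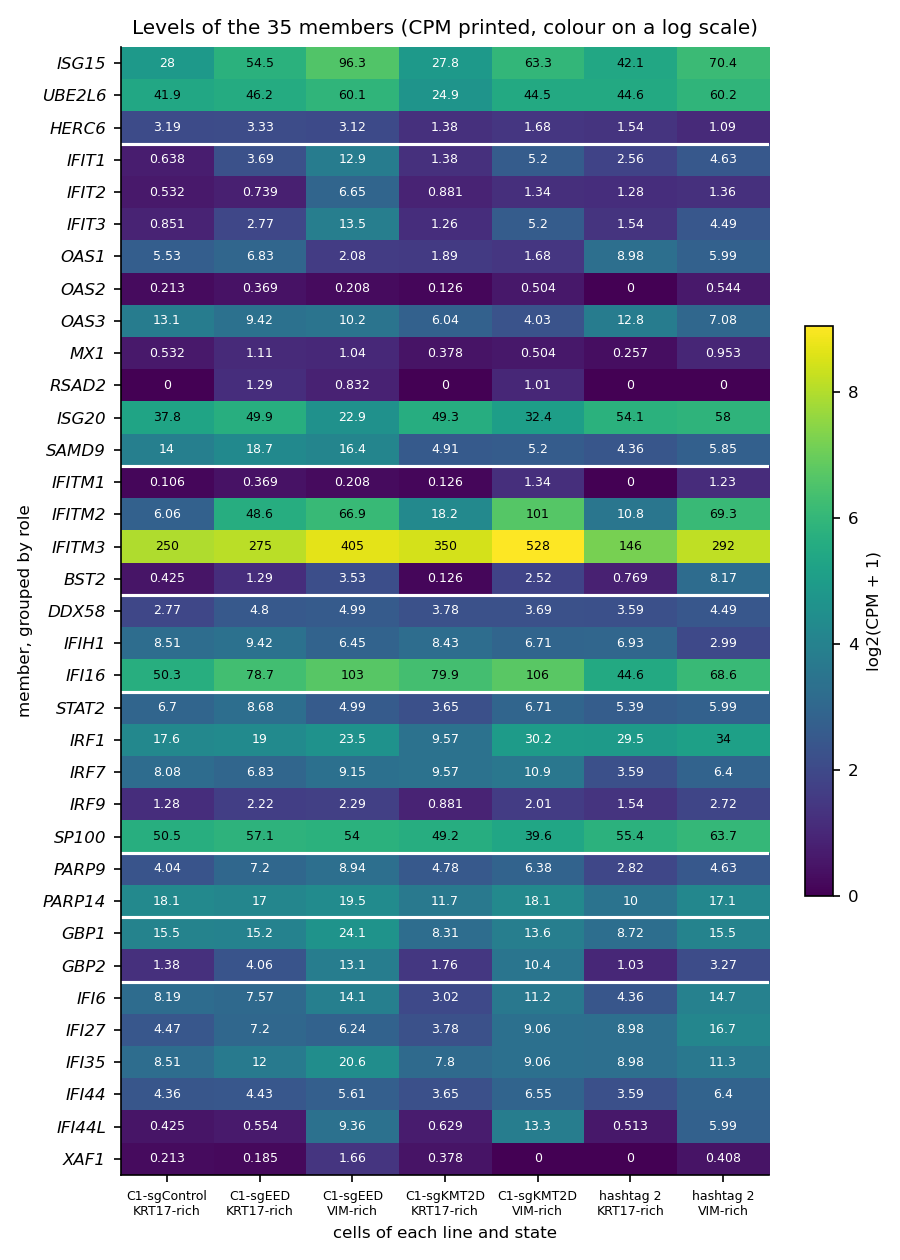
Level of each of the 35 members (rows, grouped by role) in KRT17-rich and VIM-rich cells of each line and of hashtag 2 (columns), with CPM printed and colour showing log2(CPM + 1). IFITM3 is the highest row in each column, IFITM2 goes from 6.06 CPM in KRT17-rich C1-sgControl to 101 CPM in VIM-rich C1-sgKMT2D cells, and OAS2, MX1 and RSAD2 lie near 0 in the knockout lines.

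A member was counted as higher or lower in a comparison when it reached 10 CPM in either group and differed at least 1.5-fold. In C1-sgEED against C1-sgControl 14 members reached that level, and 4 were higher (ISG15, IFITM2, IFI16 and IFI35) and 0 lower. Over all 7894 genes that reached it, 11.6% were higher and 8.87% lower, and the median log2 ratio was 0.32 for the members and 0.09 for all genes. In C1-sgKMT2D against C1-sgControl 13 members reached 10 CPM, with 4 higher (ISG15, IFITM2, IFITM3 and IFI16) and 2 lower (OAS3 and SAMD9), against 7.72% of genes higher and 14.5% lower. The median was 0.08 for these members and -0.02 for all genes, and it turned to -0.21 in cells of at least 5000 UMIs. Both comparisons share the C1-sgControl cells.

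Because the lines differ in their share of VIM-rich cells, the KRT17-rich cells were also compared with those of C1-sgControl. In C1-sgEED, 3 of 13 members were higher (ISG15, IFITM2 and IFI16) and 0 lower, against 8.23% and 5.22% of all genes. In C1-sgKMT2D, 2 of 12 were higher (IFITM2 and IFI16) and 6 lower (UBE2L6, OAS3, SAMD9, IRF1, PARP14 and GBP1), against 6.59% and 13.9%. The median log2 ratios were 0.17 and -0.31 for the members, and 0.07 and -0.02 for all genes. With a floor of 20 CPM the -0.31 turned to 0.19, from 6 members.

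Among the membrane restriction factors, which block the entry or release of enveloped viruses, IFITM2 differed most. It stood at 6.35 CPM (4.88 to 8.12, 63 UMIs) for C1-sgControl cells, 57.0 CPM (52.5 to 61.9) for C1-sgEED cells and 53.8 CPM (50.0 to 57.8) for C1-sgKMT2D cells, which is 8.99-fold (6.92 to 11.9) and 8.48-fold (6.55 to 11.2) the control. The intervals of the knockout lines overlap each other and lie far above the control. With each cell thinned to 2000 UMIs, 1.16% of control cells, 10.6% of C1-sgEED and 9.94% of C1-sgKMT2D cells held an IFITM2 UMI. All lines went through 1 droplet run, and the part of free RNA in these counts was not tested.

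The state pattern of IFITM2 differed between the knockout lines. In KRT17-rich cells it was 6.06 CPM for C1-sgControl cells, 48.6 CPM for C1-sgEED cells and 18.3 CPM for C1-sgKMT2D cells, or 8.02-fold (6.0 to 10.9) and 3.01-fold (2.20 to 4.17) the control. In VIM-rich cells C1-sgEED had 66.9 CPM and C1-sgKMT2D 101 CPM. The state ratio was thus 1.38-fold (1.17 to 1.63) in C1-sgEED and 5.55-fold (4.62 to 6.70) in C1-sgKMT2D, with intervals that do not overlap. Across 5 ranges of the VIM share, from the lowest to the highest, IFITM2 went through 12.8, 18.8, 38.8, 83.1 and 124 CPM in C1-sgKMT2D. In C1-sgEED the same ranges gave 49.2, 47.8, 53.3, 65.1 and 68.1 CPM, so cells with little VIM already had most of the level there.

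IFITM3, the most abundant member, was 246 CPM (237 to 256) for C1-sgControl cells, 336 CPM (325 to 347) for C1-sgEED cells and 427 CPM (416 to 438) for C1-sgKMT2D cells. That is 1.36-fold and 1.73-fold the control, a much smaller difference than that of IFITM2. VIM-rich cells were at 405 CPM against 275 CPM in KRT17-rich C1-sgEED cells, and at 528 against 350 CPM in C1-sgKMT2D, 1.51-fold (1.43 to 1.59). Among cells of at least 5000 UMIs the log2 ratio of that last difference fell to 0.40, below the 1.5-fold mark. IFITM1 and BST2, the tetherin gene, stayed below 4 CPM in each of these groups.

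The IFITM genes resemble each other so closely that reads may have been divided among them, and in GENCODE v29 the span of IFITM1 (chr11:313506-315272) lies inside that of IFITM2 (chr11:307631-315272) on the same strand. Their single levels are therefore uncertain, IFITM1 most of all. The 23 expressed genes around IFITM2 on the chromosome had a median log2 ratio of 0.00 for C1-sgEED and 0.07 for C1-sgKMT2D against the control, beside 2.98 and 2.90 for IFITM2.

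**Figure D2:**
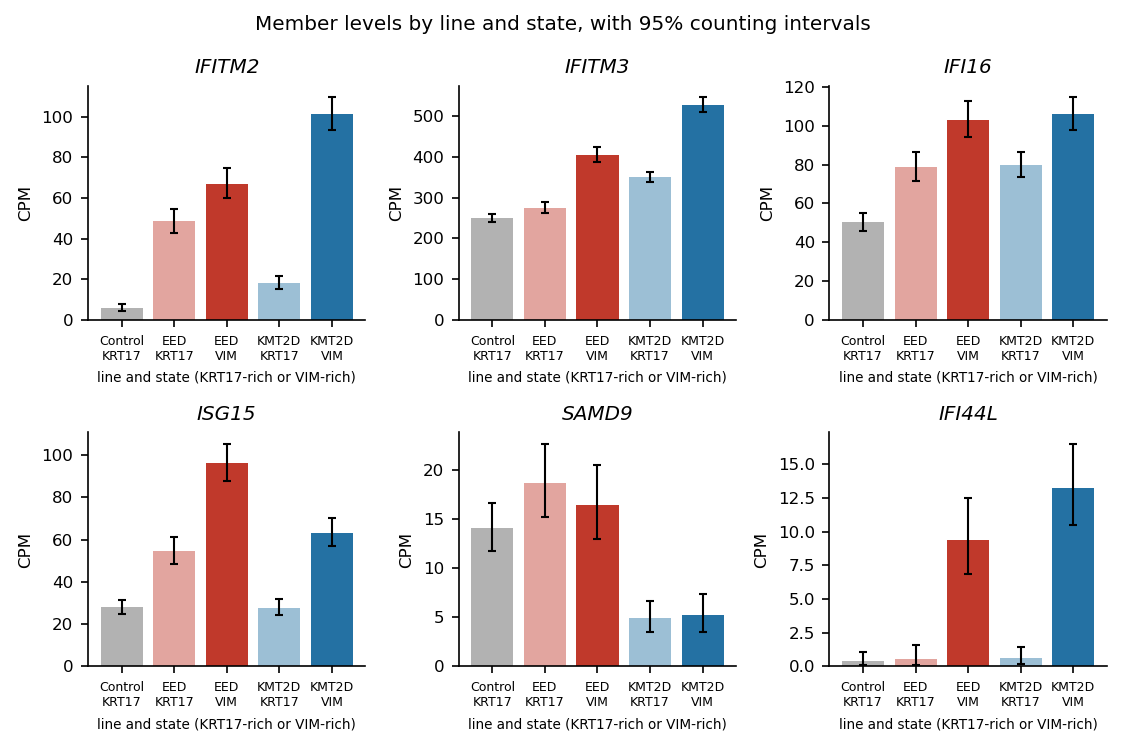
Levels of 6 members in CPM (bars from 0) in KRT17-rich cells (pale) and VIM-rich cells (dark) of C1-sgControl (grey, KRT17-rich only), C1-sgEED (red) and C1-sgKMT2D (blue), with 95% Poisson intervals from the UMI counts. IFITM2 is high in both states of C1-sgEED, SAMD9 is low in both states of C1-sgKMT2D, and IFI44L stands above 1 CPM in VIM-rich cells of both lines.

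Of the nucleic acid sensors, IFI16, a nuclear sensor of DNA, stood at 50.8 CPM (46.4 to 55.4) for C1-sgControl cells, 89.99 CPM (84.3 to 96.0) for C1-sgEED cells and 91.0 CPM (86.1 to 96.1) for C1-sgKMT2D cells. The knockout lines overlap and lie above the control. In KRT17-rich cells the values were 50.3, 78.7 and 79.9 CPM, 1.57-fold (1.37 to 1.79) in C1-sgEED and 1.59-fold (1.41 to 1.79) in C1-sgKMT2D, though among cells of at least 5000 UMIs the log2 ratios were 0.40, below the 1.5-fold mark, and 0.58, at that mark. In VIM-rich cells C1-sgEED had 103 CPM and C1-sgKMT2D 106 CPM. The cytosolic RNA sensors DDX58 (RIG-I) and IFIH1 (MDA5) lay between 2.77 and 9.42 CPM in both states of the knockout lines and in KRT17-rich C1-sgControl cells. They stayed under the 10 CPM floor and entered no count. Against the whole control line, IFIH1 was 0.97-fold in C1-sgEED and 0.93-fold in C1-sgKMT2D, and DDX58 was 1.67-fold and 1.275-fold.

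Among the conjugation genes, ISG15, a ubiquitin-like modifier that is attached to other proteins, was 27.6 CPM (24.4 to 31.1) for C1-sgControl cells, 73.9 CPM (68.7 to 79.4) for C1-sgEED cells and 43.4 CPM (40.0 to 47.0) for C1-sgKMT2D cells. The ratios were 2.68-fold (2.33 to 3.09) and 1.57-fold (1.36 to 1.82). The second rested on few cells: without the single cell of the most ISG15 UMIs in each line it was 1.32-fold, and among cells with no G2/M UMI the log2 ratio was 0.32, both under 1.5-fold. UBE2L6, the conjugating enzyme for ISG15, was 41.3, 52.8 and 33.4 CPM in the control, EED and KMT2D guide lines. In KRT17-rich C1-sgKMT2D cells it was 24.9 CPM against 41.9 CPM in the control, 0.595-fold (0.499 to 0.707). HERC6, a HERC-family ubiquitin ligase, stayed at or under 3.33 CPM in KRT17-rich and VIM-rich cells of the knockout lines.

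Both members that were lower in whole C1-sgKMT2D than in C1-sgControl were antiviral effectors. SAMD9, a restriction factor of poxviruses, was 14.3 CPM (12.1 to 16.9) for C1-sgControl cells, 17.6 CPM (15.1 to 20.3) for C1-sgEED cells and 5.23 CPM (4.10 to 6.58) for C1-sgKMT2D cells. C1-sgKMT2D lies below both other lines, at 0.366-fold (0.272 to 0.488) the control, and was as low in KRT17-rich (4.91 CPM) as in VIM-rich cells (5.20 CPM). OAS3, which makes the 2-5A signal that activates RNase L, was 13.4, 9.75 and 5.23 CPM in the control, EED and KMT2D guide lines, or 0.390-fold (0.289 to 0.523) in C1-sgKMT2D. OAS1 gave 5.44, 4.58 and 1.79 CPM and lay under 10 CPM throughout, with a C1-sgKMT2D interval (1.16 to 2.64) below that of the control (4.09 to 7.10).

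ISG20, an RNA exonuclease, was 39.5, 37.2 and 41.9 CPM in the control, EED and KMT2D guide lines but split by state. It was lower in VIM-rich cells of both knockout lines: 22.9 CPM against 49.9 CPM in KRT17-rich C1-sgEED cells, 0.459-fold (0.364 to 0.574), and 32.4 against 49.3 CPM in C1-sgKMT2D, 0.657-fold (0.550 to 0.782). The 81 VIM-rich C1-sgControl cells were at 72.7 CPM (50.7 to 101, 35 UMIs) against 37.8 CPM (33.9 to 41.9) in KRT17-rich control cells, the other direction, from a small group. Of these 81 cells 54 lay close to the cut on the VIM share. Their VIM was 2014 CPM, against 6723 and 4644 CPM in VIM-rich C1-sgEED and C1-sgKMT2D cells, so they are not a like group. MX1, OAS2 and RSAD2, usually strongly induced by interferon, stayed below 2 CPM in KRT17-rich and VIM-rich cells of the knockout lines.

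Of the transcription factors, IRF1 was even across whole lines (17.5, 21.1 and 18.8 CPM in the control, EED and KMT2D guide lines) but split by state in C1-sgKMT2D. There it was 9.57 CPM (7.54 to 11.97) in KRT17-rich and 30.2 CPM (26.0 to 34.97) in VIM-rich cells, 3.16-fold (2.40 to 4.19), while C1-sgEED had 19.0 and 23.5 CPM. A single control cell held 26 of the 174 control IRF1 UMIs. Without the highest cell of each group, KRT17-rich C1-sgKMT2D cells were at 9.33 CPM against 14.8 CPM in the control. SP100, a component of nuclear PML bodies, was 51.4, 55.6 and 44.99 CPM in the control, EED and KMT2D guide lines and stayed within 1.5-fold. IRF7 (8.06, 7.90 and 10.2 CPM), STAT2 (6.95, 6.92 and 4.94 CPM) and IRF9 (1.51, 2.24 and 1.43 CPM) were low in all 3 lines.

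Between the states of one line, more members were higher than lower in VIM-rich cells. In C1-sgEED 17 members reached 10 CPM, and 7 were higher (ISG15, IFIT1, IFIT3, GBP1, GBP2, IFI6 and IFI35) and 1 lower (ISG20), against 13.0% of all genes higher and 14.4% lower. The median log2 ratio was 0.45 for these members and 0.03 for all genes. In C1-sgKMT2D 14 reached it, with 10 higher (ISG15, UBE2L6, IFITM2, IFITM3, IRF1, PARP14, GBP1, GBP2, IFI6 and IFI44L) and 1 lower (ISG20), against 7.52% and 7.18%, and medians of 0.73 and 0.01. ISG15, GBP1, GBP2 and IFI6 were higher in both lines. The 10 CPM floor could be met in either state. In C1-sgEED 12 members reached it in KRT17-rich and 17 in VIM-rich cells, and in C1-sgKMT2D 8 and 14. IFIT1, IFIT3, GBP2 and IFI6 in C1-sgEED, and IRF1, GBP1, GBP2, IFI6 and IFI44L in C1-sgKMT2D, entered the counts only through VIM-rich cells. Members that enter this way cannot be called lower, so the counts and medians lean upward. The shares over all genes rest on the same floor. Depth and G2/M genes moved with the states, as given above, and their part was not tested, except that the ISG15 difference fell to 0.34 (C1-sgEED) and 0.25 (C1-sgKMT2D) on the log2 scale among cells with no G2/M UMI.

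**Figure D3:**
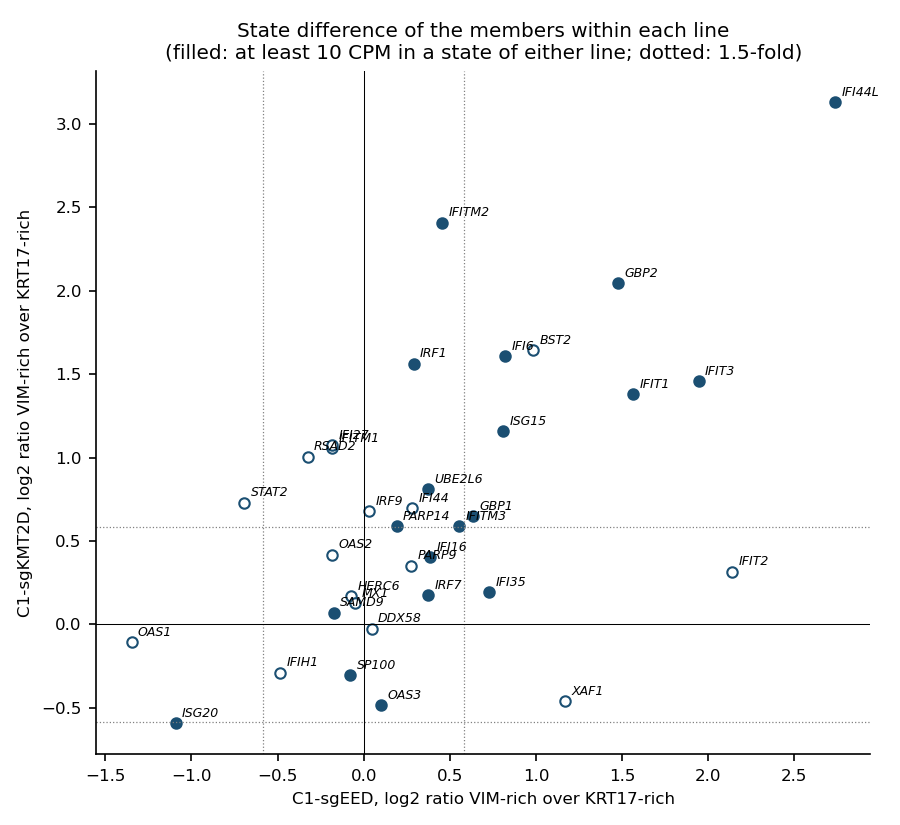
Log2 ratio of VIM-rich over KRT17-rich cells for each member within C1-sgEED (horizontal) and within C1-sgKMT2D (vertical), with a pseudocount of 1 CPM. Filled points reached 10 CPM in a state of either line and dotted lines mark 1.5-fold. IFI44L and GBP2 lie high on both axes, IFITM2 and IRF1 high on the C1-sgKMT2D axis and lower on the other, and ISG20 low on both.

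IFI44L, a gene of the IFI44 family, came almost only from VIM-rich cells. KRT17-rich cells had 0.425 CPM (4 UMIs) for C1-sgControl cells, 0.554 CPM (3 UMIs) for C1-sgEED cells and 0.629 CPM (5 UMIs) for C1-sgKMT2D cells. VIM-rich cells had 9.36 CPM (45 UMIs) in C1-sgEED and 13.3 CPM (79 UMIs) in C1-sgKMT2D, 16.9-fold (5.42 to 84.9) and 21.1-fold (8.66 to 66.7) higher. Its neighbour IFI44 went the same way by much less. It was at 4.43 and 5.61 CPM in C1-sgEED (1.27-fold) and 3.65 and 6.55 CPM in C1-sgKMT2D (1.79-fold), all under 10 CPM.

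The guanylate-binding GTPases coat pathogen membranes after interferon gamma. GBP2 was 4.06 CPM in KRT17-rich and 13.1 CPM in VIM-rich C1-sgEED cells, 3.22-fold (1.96 to 5.501), and 1.76 and 10.4 CPM in C1-sgKMT2D, 5.91-fold (3.27 to 11.4). GBP1 was 15.2 and 24.1 CPM in C1-sgEED and 8.31 and 13.6 CPM in C1-sgKMT2D, so it was lower in C1-sgKMT2D in either state while the ratio between states was alike (1.59-fold and 1.64-fold). IFI6, a mitochondrial protein that limits cell death, was 7.57 and 14.1 CPM in C1-sgEED and 3.02 and 11.3 CPM in C1-sgKMT2D, 1.87-fold (1.25 to 2.82) and 3.72-fold (2.31 to 6.21).

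Of the remaining members, IFI35 was higher in C1-sgEED, with 16.1 CPM against 8.36 CPM in C1-sgControl, 1.92-fold (1.47 to 2.54), and 8.38 CPM in C1-sgKMT2D. PARP14, an ADP-ribosyltransferase, was 17.9, 18.1 and 14.5 CPM in the control, EED and KMT2D guide lines, and its partner PARP9 was 4.43, 8.09 and 5.52 CPM. IFI27 was 4.43, 6.83 and 6.16 CPM and IFI44 4.13, 4.97 and 5.09 CPM, while XAF1 stayed under 1 CPM in each whole line.

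Set against each other, C1-sgKMT2D was lower than C1-sgEED in 6 of 14 members and higher in 0. These were ISG15, UBE2L6, SAMD9, GBP1, IFI6 and IFI35, and over all genes 3.42% were higher and 14.0% lower. Among VIM-rich cells alone 7 of 19 were lower (ISG15, IFIT1, IFIT3, OAS3, SAMD9, GBP1 and IFI35) and 1 higher (IFITM2), against 19.1% and 9.19% of all genes. IFIT1 and IFIT3 rested on the few high cells described below: without them VIM-rich C1-sgEED cells were at 3.77 and 5.02 CPM, under the 10 CPM floor. The medians were -0.30 and -0.31 for the members and -0.10 and -0.12 for all genes.

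**Figure D4:**
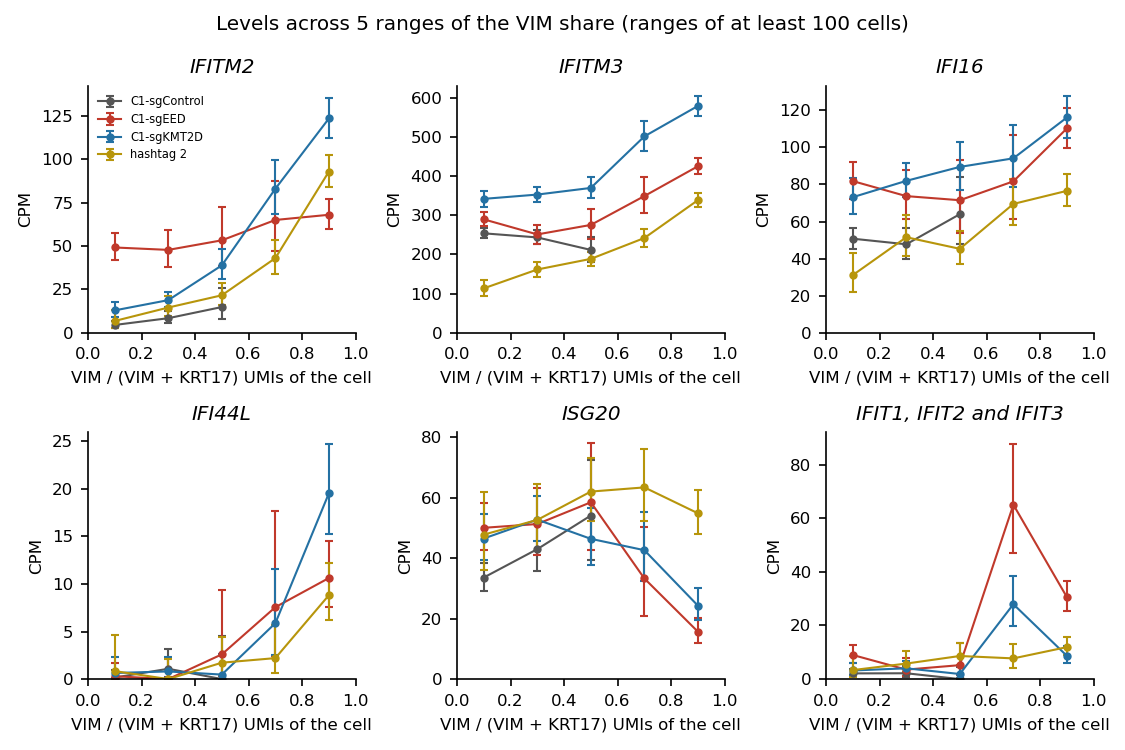
Level in CPM of 5 members and of the IFIT sum (vertical) across 5 ranges of the VIM share of a cell (horizontal) for each line and hashtag 2, with 95% Poisson intervals, drawn for ranges of at least 100 cells. IFITM2 climbs with the VIM share in C1-sgKMT2D (12.8 to 124 CPM) and hashtag 2 (6.71 to 93.03 CPM) and less in C1-sgEED, ISG20 is lowest at the highest VIM share in C1-sgEED and C1-sgKMT2D, and in those 2 lines the IFIT sum is highest in the range from 0.6 to 0.8 (65.1 CPM in C1-sgEED), which holds 2 of the 3 highest cells.

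The IFIT proteins bind foreign RNA that lacks the cap methylation of host messages. In both knockout lines a large part of their transcripts lay in few cells. IFIT1, IFIT2 and IFIT3 together had 19 UMIs in C1-sgControl cells, 198 among C1-sgEED cells and 98 among C1-sgKMT2D cells, or 1.91, 19.3 and 7.02 CPM. In C1-sgControl the 19 UMIs lay in 19 different cells. In C1-sgEED they lay in 71 cells, and the 23 cells of the most UMIs (1% of the line) held 75.8%. In C1-sgKMT2D the corresponding 23 cells held 70.4%. A low count raises this share by itself: in C1-sgControl 17 cells held 89.5% of the 19 UMIs, at 1 UMI each. The highest IFIT sum in a cell was 57 UMIs in C1-sgEED and 31 in C1-sgKMT2D. IFITM2 had more UMIs (585 and 751), with 11.8% and 13.2% of them in its top 23 cells. No cell of these lines held more than 4 and 6 IFITM2 UMIs. In C1-sgControl the top 17 cells held 30.2% of 63 IFITM2 UMIs.

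The 3 cells of the most IFIT UMIs were all VIM-rich. The highest C1-sgEED cell had 15 IFIT1, 21 IFIT2, 21 IFIT3 and 19 ISG15 UMIs among 7292 in all. The next C1-sgEED cell had 20 IFIT1, 4 IFIT2, 16 IFIT3 and 60 ISG15 UMIs among 5897. A C1-sgKMT2D cell had 13 IFIT1, 18 IFIT3, 114 ISG15 and 6 RSAD2 UMIs among 10732, and those 6 were the only RSAD2 UMIs of its line. These cells took 98.6%, 98.3% and 99.8% of their hashtag UMIs from 1 hashtag, and their total UMIs lay between 5897 and 10732. The same 3 cells had 9, 4 and 17 UMIs of OASL, an antiviral OAS-like gene that is no member, and no UMI of IFNB1 or IFNL1.

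**Figure D5:**
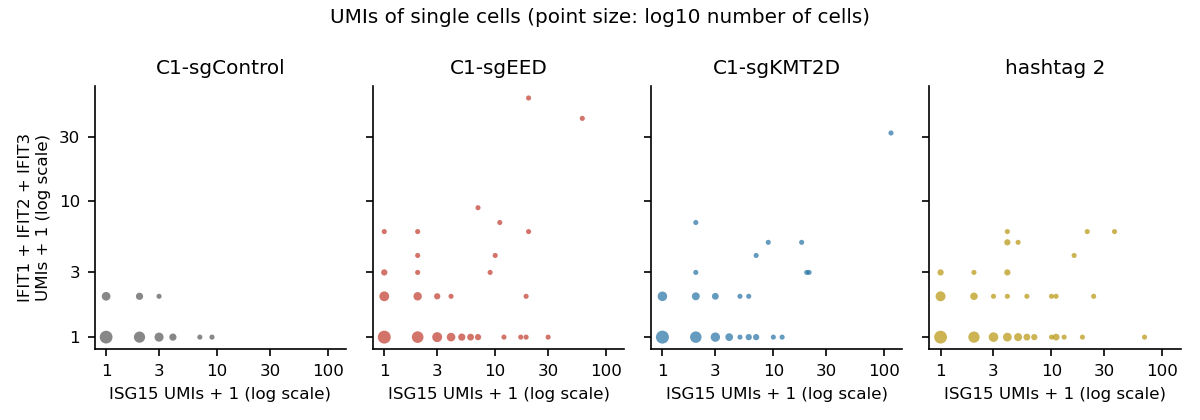
UMIs of ISG15 (horizontal) and of IFIT1, IFIT2 and IFIT3 together (vertical) in single cells of each line and of hashtag 2, both plus 1 on log axes, with point size showing the log10 number of cells at that place. C1-sgControl cells stay at 1 IFIT UMI or fewer and at most 8 ISG15 UMIs, while single cells of C1-sgEED reach 57 IFIT UMIs and a C1-sgKMT2D cell reaches 114 ISG15 UMIs.

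A cut set after these counts were seen, at least 5 IFIT or at least 10 ISG15 UMIs, took 0 of 1720 C1-sgControl cells (which allows up to 0.214%), 12 of 2338 C1-sgEED cells (0.513%, exact Clopper-Pearson interval 0.266% to 0.895%) and 6 of 2348 C1-sgKMT2D cells (0.256%, 0.0938% to 0.555%). The intervals of the knockout lines overlap, and that of C1-sgKMT2D also overlaps the control. In C1-sgEED 7 of these cells were VIM-rich and 5 KRT17-rich, and in C1-sgKMT2D 5 and 1. They held 64.1% of IFIT and 27.3% of ISG15 UMIs in C1-sgEED, and 45.9% and 30.03% in C1-sgKMT2D.

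Of the 31 members that did not set the cut, 10 had no UMI in the 12 C1-sgEED cells, 16 had an interval of the ratio to the rest that spans 1, and 5 lay above it (HERC6, OAS3, RSAD2, IFI6 and IFI44). In the 6 C1-sgKMT2D cells 8 had no UMI, 14 spanned 1 and 9 lay above it. These counts have no share over all genes beside them, so they do not show whether the members exceed other genes. Some rest on few UMIs: HERC6 and RSAD2 had 2 each in the C1-sgEED cells. In the C1-sgKMT2D cells MX1 had 1 UMI, and RSAD2 (6 UMIs) and IFI27 (3 UMIs) each came from 1 cell. OASL, named after its values were seen, was 367 CPM in the 12 C1-sgEED cells against 1.87 CPM in the rest, 197-fold (105 to 376), and 728 against 1.37 CPM in the 6 C1-sgKMT2D cells. IFI44 was 30.8-fold (13.2 to 64.3) and 18.9-fold (5.003 to 50.7) higher, and IFI6 8.38-fold (3.01 to 18.9) and 25.8-fold (10.1 to 55.4). IFITM2 and IFI16 were not set apart, at 0.494-fold (0.0597 to 1.79) and 1.10-fold (0.441 to 2.28) in C1-sgEED, nor was VIM, at 1.00-fold (0.884 to 1.13). KRT17 was 0.843-fold (0.739 to 0.959) in the C1-sgEED cells and 0.186-fold (0.138 to 0.244) in the C1-sgKMT2D cells, of which 5 of 6 were VIM-rich.

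Without these cells ISG15 was 27.6 CPM for C1-sgControl cells, 54.1 CPM (1.96-fold) for C1-sgEED cells and 30.5 CPM (1.10-fold) for C1-sgKMT2D cells, so the C1-sgEED difference stayed above 1.5-fold and that of C1-sgKMT2D did not. The state ratios of ISG15 became 1.42-fold in C1-sgEED and 1.44-fold in C1-sgKMT2D, both under 1.5-fold, and IFIT1 and IFIT3 dropped below 10 CPM in VIM-rich C1-sgEED cells. The number of members higher in VIM-rich C1-sgEED cells then fell from 7 to 4, and the 3 lost were ISG15, IFIT1 and IFIT3, whose own counts chose the cells left out.

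Co-variation across cells was described by the spread of counts between cells. With cells thinned to 2000 UMIs, the Fano factor (variance over mean, 1 for pure counting) of the IFIT sum was 0.997 in KRT17-rich C1-sgControl cells and 9.33 in VIM-rich C1-sgEED cells, beside medians of 1.02 over all genes of 10 CPM in both. Only 6 of these control cells held an IFIT UMI, at 1 each, which by itself keeps the factor near 1, and 1 VIM-rich C1-sgEED cell held 17. The IFIT sum gave 1.69 in KRT17-rich C1-sgEED, 0.991 in KRT17-rich C1-sgKMT2D and 2.60 in VIM-rich C1-sgKMT2D cells. The 0.991 likewise came from 11 cells at 1 UMI each. ISG15 reached 4.18 in VIM-rich C1-sgEED and 6.32 in VIM-rich C1-sgKMT2D cells, while IFI16 was 1.01 and 1.09 there. In VIM-rich C1-sgEED cells with an ISG15 UMI the other members were 1.54-fold (1.37 to 1.73) those in cells without one. These cells still included the high cells, rich in both ISG15 and IFIT UMIs, and their part in the ratio was not tested. The summed members had a Fano factor of 2.42 in this group, so the interval, which covers pure counting only, is too narrow. The same ratio was 1.28-fold in VIM-rich C1-sgKMT2D cells, but 0.992-fold at 5000 UMIs, and between 1.04-fold and 1.11-fold in the KRT17-rich groups of the 3 lines.

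Of the receptors and kinases of the pathway, 0 of 8 genes were past 1.5-fold in C1-sgEED against C1-sgControl (11.6% of all genes were higher and 8.87% lower) and 0 of 9 in C1-sgKMT2D (7.72% and 14.5%). In C1-sgKMT2D over C1-sgEED 1 of 9 was higher, and 3 of 9 among VIM-rich cells. Between states, 3 of 9 were higher in VIM-rich C1-sgKMT2D cells (7.52% of all genes), among them the kinase gene JAK1 (63.1 against 40.3 CPM) and the interferon gamma receptor gene IFNGR1 (47.0 against 28.95 CPM). In C1-sgEED 1 of 8 was lower, IFNGR2, the second chain of that receptor (55.9 against 89.8 CPM).

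Of 13 genes of nucleic acid sensing, 7 reached 10 CPM in C1-sgEED against C1-sgControl. TMEM173 (STING), the adaptor of cytosolic DNA sensing, was higher (26.1 against 16.9 CPM) and TRIM25, a ligase that acts on RIG-I, was lower (17.1 against 25.7 CPM). In C1-sgKMT2D 0 of 7 passed in either direction. The negative regulator USP18, which removes ISG15 from proteins, stayed between 3.15 and 4.19 CPM in the 3 lines. Of the 6 negative regulators 3 reached 10 CPM and 0 of them differed 1.5-fold between either knockout line and the control.

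Among 29 further interferon-stimulated genes outside the member list, C1-sgEED had 2 higher and 2 lower of 10 against C1-sgControl (11.6% and 8.87% over all genes), and C1-sgKMT2D 1 higher and 3 lower of 9 (7.72% and 14.5%). LGALS3BP, a secreted glycoprotein gene, was 59.6 CPM in C1-sgEED against 36.8 CPM, and PLSCR1, a scramblase gene, was 51.3 CPM in C1-sgKMT2D against 27.3 CPM. PARP12 and TNFSF10, the gene of the death ligand TRAIL, were lower in both (6.83 and 6.74 against 12.2 CPM, and 11.4 and 12.1 against 20.2 CPM). In VIM-rich against KRT17-rich cells PLSCR1 was higher in both lines (1.56-fold in C1-sgEED, 2.18-fold in C1-sgKMT2D) and TNFSF10 lower in both (0.191-fold and 0.414-fold), while LGALS3BP was lower in C1-sgEED (0.666-fold) and higher in C1-sgKMT2D (2.27-fold).

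Hashtag 2 cells, whose line is not known, were split by state within themselves only. In the 1338 VIM-rich against the 575 KRT17-rich cells 8 of 14 members were higher (ISG15, IFITM2, IFITM3, IFI16, PARP14, GBP1, IFI6 and IFI27) and 1 lower (OAS3), against 6.05% and 7.14% of all genes. IFITM2 was 69.3 CPM against 10.8 CPM, 6.43-fold (4.69 to 9.03), IFITM3 was 292 against 146 CPM, and IFI6 was 14.7 against 4.36 CPM. ISG20 was 58.0 and 54.1 CPM, within 1.5-fold. Here too the floor could be met in either state, by 10 members in KRT17-rich and 13 in VIM-rich cells. By the cut above 12 of these cells were high, with at most 5 IFIT and 68 ISG15 UMIs in a cell. Without them ISG15 was 42.9 CPM in VIM-rich and 34.4 CPM in KRT17-rich cells, under 1.5-fold.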

How the data were processed

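The authors deposited 1 matrix of whole UMI counts, genes and hashtags by barcode, made with Cell Ranger 3.0.2 on GRCh38, per the submitters' processing notes. For its annotation, the version was not given in the sources used here. Per the labels, the library kit was a 10x 3' kit. The matrix has 10336 barcodes, 33694 genes and 4 hashtags, and 0 columns of other samples. Keeping barcodes of at least 500 genes and at most 20% mitochondrial UMIs left 9193. Hashtag calls used the count at which the 2 components of a Gaussian mixture, fitted to log10 hashtag counts with scikit-learn 1.9.0, cross. The 827 barcodes positive for several hashtags were removed as doublets and 26 positive for none were left out, while doublets within a hashtag stay in. Cells with under 5 VIM and KRT17 UMIs have no state.

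UMIs were summed per group and scaled to CPM of gene UMIs. Intervals were exact: Poisson for levels, conditional binomial for ratios, Clopper-Pearson for shares (numpy 2.4.6, scipy 1.17.1, pandas 2.3.3). Cells are not replicates, so no p-value was computed. A pseudocount of 1 CPM was added before log2 ratios were taken, so those of low genes are understated. The text names all 35 members, and of the other interferon lists genes of at least 10 CPM in either group and 1.5-fold, plus USP18, IFNB1, IFNL1, VIM and KRT17. Some genes of these lists are not reported here. OASL and the high-cell cut were chosen after their values were seen. The members and lists were chosen with earlier results of these data known. IFITM and IFIT genes have close copies, and the IFIT, OAS and other members overlap annotated genes of the opposite strand (LIPA, AC004551.1), so their levels are uncertain where reads could be shared. Positions come from GENCODE v29, in which all 35 members matched, and promoters from RefSeq, in which 30 of 35 matched. Interval and fold counting were tested on simulated Poisson counts, the model that the intervals assume. That check does not cover genes whose counts spread more widely between cells, such as ISG15 and the IFIT genes. Alternatives changed the filter, floor, scaling, depth, state rule and G2/M cells.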

Additional observations from a re-analysis of the deposited data

Results flagged for a closer look

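The cells of hashtag 2, which the labels tie to no line, enter no comparison between lines, but held members above the C1-sgControl level. ISG15 was 60.5 CPM, IFITM2 48.8 CPM, IRF1 32.5 CPM and IFI27, a gene strongly induced by type I interferon, 14.1 CPM in these 1934 cells. The C1-sgControl levels of these genes were 27.6, 6.35, 17.5 and 4.43 CPM. These genes were listed because they stood at least 1.5-fold above C1-sgControl, and no share over all genes is beside them. Hashtag 2 cells were 69.9% VIM-rich, against 4.76% of C1-sgControl cells, so the levels compare unlike mixtures of states. In KRT17-rich cells alone ISG15 was 42.1 CPM in hashtag 2 and 28.0 CPM in C1-sgControl. Without the 12 high cells of hashtag 2, which ISG15 itself helped to choose, its ISG15 level was 39.9 CPM. Other members were lower in hashtag 2 cells, such as SAMD9 (5.58 against 14.3 CPM) and OAS3 (9.12 against 13.4 CPM). They are given as values only, since the line behind hashtag 2 is not known.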

How the results depend on the processing

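No paired analysis was possible because each line is 1 sample and no replicate numbers are given. Of 127 medians and folds recomputed under other settings, 120 moved by less than their spread and 7 by more. The member median log2 ratio of C1-sgKMT2D over C1-sgControl (0.08) was 0.64 with a floor of 20 CPM and -0.21 in cells of at least 5000 UMIs. That of C1-sgKMT2D over C1-sgEED (-0.30) was -0.56 with at least 1000 genes and at most 10% mitochondrial UMIs, -0.67 in cells of at least 5000 UMIs and -0.61 in cells with no G2/M UMI. KRT17-rich C1-sgKMT2D over C1-sgControl (-0.31) was 0.19 with a floor of 20 CPM, where 6 members remained. The fold of other members beside ISG15 in VIM-rich C1-sgKMT2D cells (1.28) was 0.992 at 5000 UMIs. The cause of these shifts was not tested. Of 244 counts of members 56 moved by over 1.5 times, chiefly since a lower floor admits more members: C1-sgEED over C1-sgControl had 4 members higher at 10 CPM, 13 at 2 CPM and 17 with no floor. Median-of-ratios scaling shifted C1-sgKMT2D over C1-sgEED by -0.11 and its VIM-rich comparison by -0.12 for all genes. Members under 10 CPM rest on few UMIs and have wide intervals, so small differences in them were not detectable at this depth. The settings without the high cells and with a floor on the mean of both groups were chosen after seeing the data.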
